A study of Homo sapiens with 24 samples.

Results

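Ribosomal protein paralogs are genes that arose as copies of a ribosomal protein gene and kept an open reading frame. Here 5 such genes with an L suffix, RPL22L1, RPS27L, RPL39L, RPL26L1 and RPL7L1, were taken by symbol from a table of 25268 genes, and all 5 were found. They were selected on FPKM values of these same libraries, and the differences with A771726 are treated as the values used, so every comparison that involves A771726 is given for them as a description, with no p-value. RNA came from A375, an established human malignant melanoma line, depleted of ribosomal RNA and sequenced as paired ends. The 4 treatments were the solvent DMSO alone, nucleotides alone, 25 µM A771726 alone, and 25 µM A771726 together with nucleotides. Each lasted 24 or 48 h, which gives 8 groups of 3 libraries. A771726 is the active metabolite of leflunomide, a drug that blocks DHODH and with it the making of new pyrimidines, and added nucleotides can bypass that block. Which nucleotides were used, and at what dose, is not given in the sources used here, and nothing says whether the 3 libraries of a group came from separate cultures, so the spread between them may be technical.

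Each member has a parent gene that codes for a standard subunit of the cytosolic ribosome, namely RPL22, RPS27, RPL39, RPL26 and RPL7. Messenger RNAs of standard ribosomal proteins usually begin with an uninterrupted run of pyrimidines at the first base, the terminal oligopyrimidine tract, which ties their translation to growth signals. Paralogs can replace the parent in the ribosome or act outside it. RPL22L1 can take the place of RPL22, and in mouse the RPL22 protein represses RPL22L1. RPS27L is transcribed under control of p53, a stress-activated transcription factor, and its protein binds MDM2, the ligase that degrades p53. RPL39L is best known from the testis, where in mouse it belongs to ribosomes of male germ cells. RPL26L1 closely resembles RPL26, a protein at the exit of the ribosomal tunnel, and RPL7L1 is related to the yeast ribosome assembly factor Rlp7.

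The members differ in how much they still resemble their parents. Aligned coding sequences from GENCODE 29 were 94.9% identical between RPL39L and RPL39, with 148 of 156 bases the same. Identity was 84.2% for RPL26L1, 199 of 255 bases for RPS27L, 68.6% for RPL22L1 and 57.0% for RPL7L1. No stretch of 100 bases in the principal transcript of RPL22L1, RPS27L or RPL39L occurred in the transcript of another gene. Such shared stretches made up 20.7% of RPL26L1, all of them from the pseudogene RPL26P30, and 6.03% of RPL7L1. The parents shared from 14.0% in RPL22 to 60.5% in RPL7, so their levels and those of RPL26L1 and RPL7L1 are uncertain to the extent that the authors' counting divided reads among copies. The search found exact matches of 100 bases only and cannot speak for shorter stretches or for reads placed with mismatches. RPL39L and RPL39 shared an identical coding run of 44 bases, and RPL39L was at 0.674% of RPL39 in DMSO at 24 h. The level of RPL39L is therefore uncertain too.

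The start regions of RPL22L1 and RPS27L are shown with those of their parents. Between DMSO and A771726 at 24 h, RPL22L1 was the member whose ratio to its parent fell most. RPS27L was the one whose ratio rose most. Each line gives 70 bases before and 30 bases from the RefSeq start in GRCh38.p14, 5′ to 3′ on the gene's own strand. Capitals mark the longest run of C or T found within 20 bases on either side of the start, and all runs of that length where there is a tie. RPL22L1 lies on the minus strand of chromosome 3 and its window is chr3:170870166-170870265. The RPL22 window is chr1:6199566-6199665 on the minus strand, that of RPS27L is chr15:63157448-63157547 on the minus strand, and that of RPS27 is chr1:153990692-153990791 on the plus strand.
RPL22L1: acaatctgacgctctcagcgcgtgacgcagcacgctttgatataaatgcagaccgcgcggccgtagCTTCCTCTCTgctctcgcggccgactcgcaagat
RPL22: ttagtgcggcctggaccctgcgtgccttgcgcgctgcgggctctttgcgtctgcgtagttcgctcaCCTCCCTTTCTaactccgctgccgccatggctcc
RPS27L: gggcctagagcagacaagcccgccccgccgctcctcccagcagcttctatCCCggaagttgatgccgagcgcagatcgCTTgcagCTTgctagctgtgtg
RPS27: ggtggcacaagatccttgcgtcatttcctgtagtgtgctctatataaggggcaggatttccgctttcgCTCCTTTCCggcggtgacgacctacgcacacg

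Member and parent could be set side by side for RPL22L1, RPS27L and RPL26L1, but not for RPL39L and RPL7L1. The run of 10 pyrimidines in RPL22L1 spans the start, from base -4 to base 6, and that of RPL22 has 11, from -4 to 7. The run of RPS27 has 9 bases and also spans the start, whereas the longest runs of RPS27L have 3 bases, and none of these 3 tied runs spans the start. Among the other genes, RPL26L1 has a run of 6 that ends 8 bases before its first listed start and RPL7L1 has 4 tied runs of 2, none across the start, against 14 in RPL26 and 22 in RPL39, both across the start. Of 35116 promoters of 27305 genes in the RefSeq table, 8.52% hold a run of at least 10 in that window, 38.8% one of at least 6 and 94.4% one of at least 3. The median run is 5 over all promoters and 11 over 78 promoters of cytosolic ribosomal protein genes. The letters describe the annotated start only, since no start was measured in these cells.

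**Figure D1:**
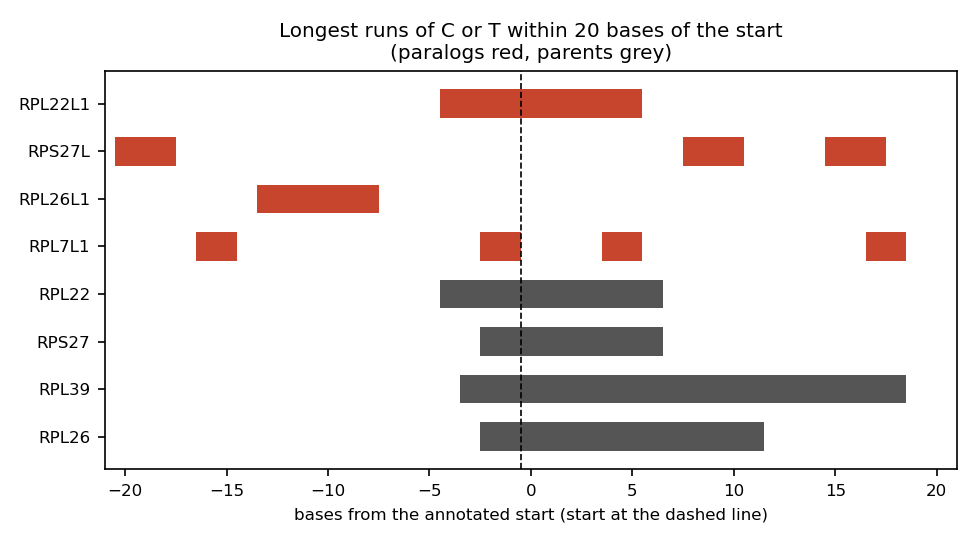
Longest runs of C or T, ties included, within 20 bases of the annotated start (dashed line), with position in bases on the horizontal axis, paralogs in red and parents in grey. The runs of RPL22L1 (10 bases) and of the 4 parents drawn cross the start, and none of those of RPS27L (3 bases), RPL26L1 (6) and RPL7L1 (2) does.

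In windows from 250 bases before to 50 bases after the start, 4 short motifs were searched on both strands. CCGGAAG, a core recognised by ETS factors, is in the promoters of RPS27L and RPL7L1 and in that of RPL26, and 10.3% of all promoters hold it. In RPS27L it overlaps the first capitals above. AAGATGGC, the core bound by YY1, is in RPL22L1 (2.89% of all promoters), as is TATAAA, the TATA box (11.5%), and CACGTG, the E-box core, is in RPL7L1 (7.26%).

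Levels are given as deposited, in FPKM (fragments scaled to transcript length and to the mapped fragments of the library), a relative measure in which less RNA per cell and fewer cells with the transcript cannot be told apart. Read depth is unknown because the values used here are FPKM and not counts. In 22 libraries the FPKM summed to between 459325 and 773002, and each had a median Spearman correlation with the other libraries of 0.959 to 0.973. The exceptions were 2 libraries of A771726 at 48 h, replicates 1 and 2. They summed to 231144 and 2283900, listed 8101 and 16198 genes at 0, and had median correlations of 0.925 and 0.573. Levels of the members in that group are therefore given per library, and values with replicate 3 as the only library of that group stand beside the differences at 48 h. The melanoma label was checked against SOX10 (median 37.3 FPKM) and S100B (27.2), which were present, and against the pigment genes PMEL (0.245), MLANA (0.172) and TYR (0), which were near 0 or at 0.

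RPL22L1 had its lowest levels in the 3 libraries given A771726 for 24 h. In DMSO at 24 h it was at 57.8, 67.6 and 55.2 FPKM in replicates 1 to 3. With A771726 it was at 8.68, 17.7 and 12.7 FPKM, and with A771726 and nucleotides at 52.1, 39.5 and 46.6. The A771726 libraries did not overlap any other group, including nucleotides alone at 48.1, 63.4 and 51.9 FPKM. Group means were 60.2 ± 6.53 FPKM in DMSO and 13.03 ± 4.50 with A771726 (SD, n = 3). The difference was -2.17 ± 0.22 (SE) in log2(FPKM + 1), and nucleotides given with A771726 were 1.79 ± 0.22 above A771726 alone.

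At 48 h the pattern of RPL22L1 depended on the library. DMSO gave 60.4, 57.8 and 52.6 FPKM, nucleotides 58.3, 63.0 and 37.7, and A771726 with nucleotides 55.9, 66.8 and 60.4. A771726 alone gave 20.1, 65.8 and 30.2, so replicates 1 and 3 were below every other library at 48 h and replicate 2 was within their range. The log2 difference from DMSO was -0.71 ± 0.39 with all 3 libraries and -0.89 with replicate 3 alone. In order of group means the 7 other groups ran from 61.0 down to 38.7 FPKM, with each group overlapping the next, and A771726 at 24 h was the lowest and did not overlap the group above it.

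RPS27L stood highest in the A771726 groups at both times. At 24 h DMSO gave 112, 126 and 96.0 FPKM, nucleotides 96.4, 125 and 98.5, and A771726 with nucleotides 103, 82.1 and 84.5. A771726 alone gave 107, 354 and 249 FPKM. Replicates 2 and 3 were above all other libraries at that time, and replicate 1 lay within the DMSO range. The log2 difference from DMSO was 0.93 ± 0.35, and it was 1.42 without A771726 replicate 1. Among the 22 libraries that replicate also had the lowest median level of cytosolic ribosomal protein genes, 458 FPKM against 825 and 747 in replicates 2 and 3, and the part of that in the result was not tested.

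At 48 h all 3 A771726 libraries were above the rest for RPS27L. They were at 151, 558 and 373 FPKM, against 92.1, 89.5 and 78.9 in DMSO. Nucleotides gave 96.4, 100.1 and 49.9 FPKM and A771726 with nucleotides 87.6, 103 and 82.3. The difference from DMSO was 1.85 ± 0.45 in log2(FPKM + 1), and A771726 with nucleotides was -1.79 ± 0.45 relative to A771726 alone. With replicate 3 alone these differences were 2.09 and -2.03. The order of group means was A771726 at 48 h (360.4 FPKM), A771726 at 24 h (236.8) and then DMSO at 24 h (111.4), with the remaining 5 groups between 82.2 and 107. RPS27L overlaps LACTB, a mitochondrial protease gene on the opposite strand, and without a stated strand setting their reads cannot be told apart. LACTB was at 2.39 to 3.36 FPKM with A771726 at 24 h and at 2.15 to 2.78 FPKM in DMSO, but at 78.1 FPKM in replicate 2 of A771726 at 48 h.

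**Figure D2:**
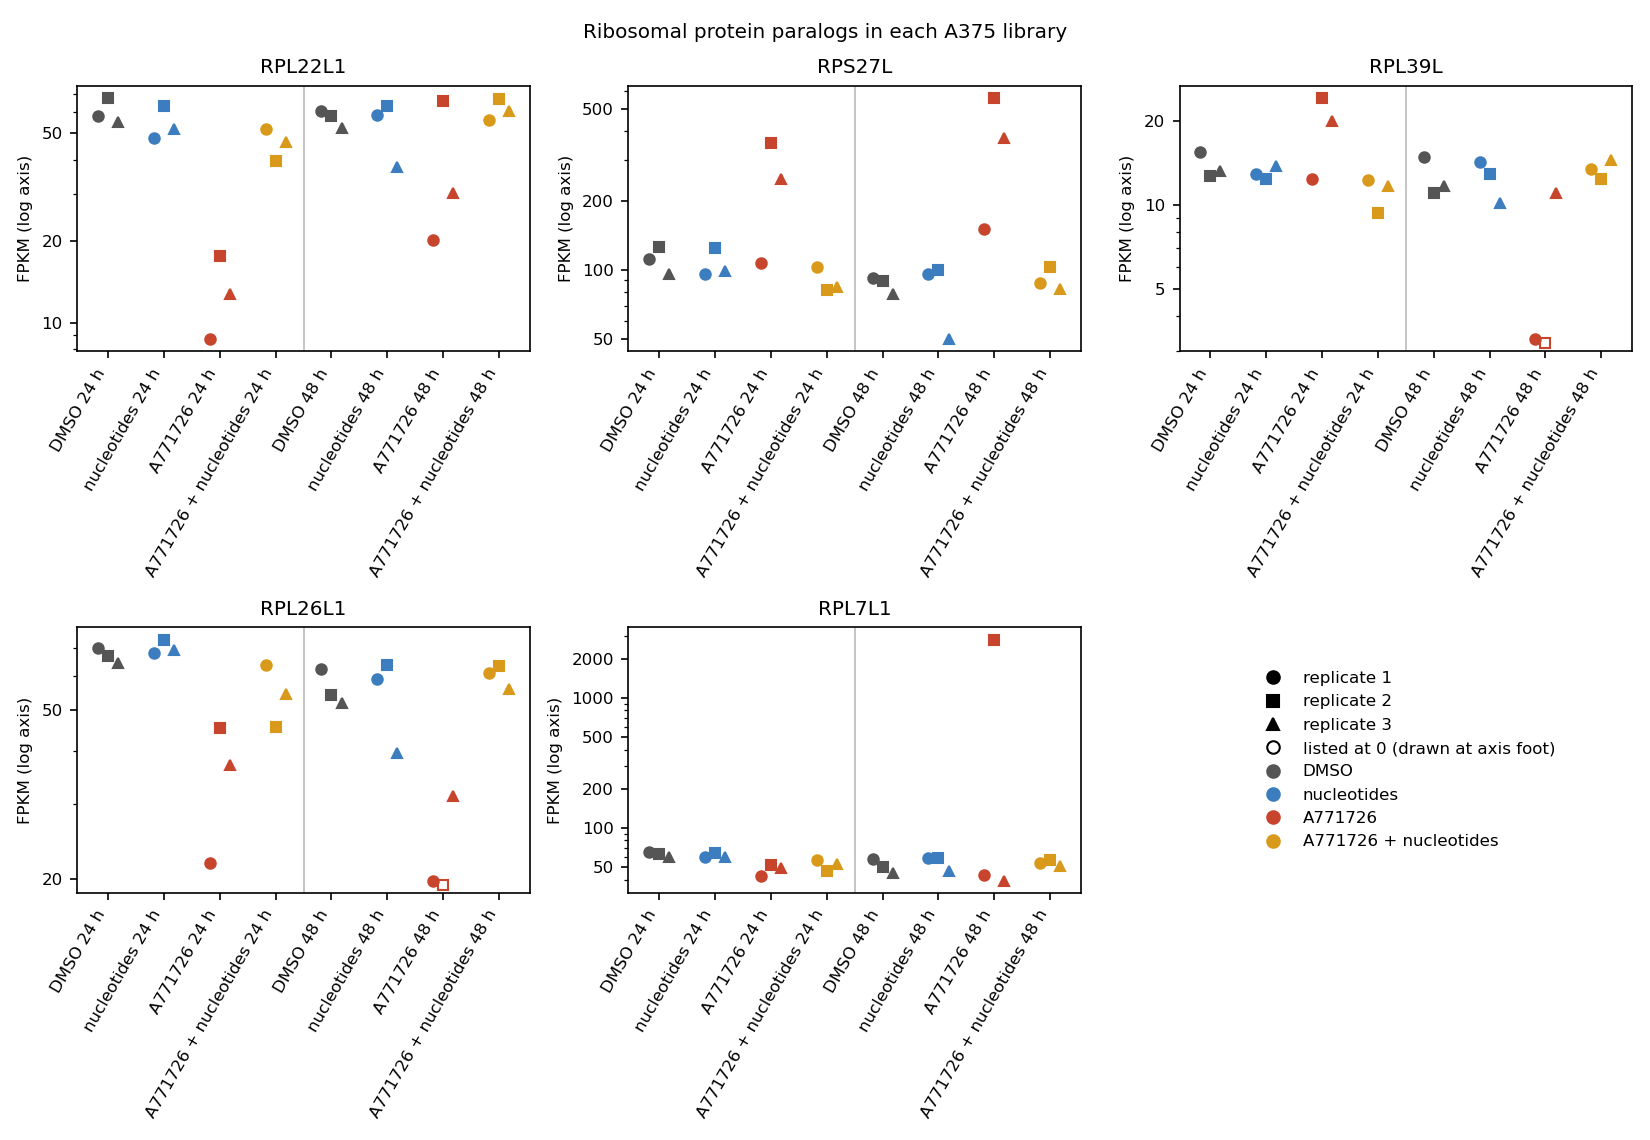
FPKM (log axis) of the 5 paralogs in each of 24 libraries, with groups on the horizontal axis, colour for treatment and symbol for replicate. RPL22L1 is lowest with A771726 at 24 h (8.68 to 17.7 FPKM), RPS27L is highest with A771726 at 48 h (151 to 558 FPKM), and open symbols mark the library that lists RPL39L and RPL26L1 at 0.

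RPL39L was the lowest of the 5 members, with 12.7 to 15.5 FPKM in DMSO at 24 h. With A771726 for 24 h it was at 12.4, 24.1 and 19.999 FPKM, and with nucleotides added at 12.3, 9.40 and 11.7. Replicates 2 and 3 of A771726 were above every other library at 24 h, and replicate 1 was not. The difference from DMSO was 0.38 ± 0.20 and, without replicate 1, 0.64 in log2(FPKM + 1). At 48 h the A771726 libraries gave 3.31, 0 and 11.0 FPKM against 14.8, 11.0 and 11.7 in DMSO, and replicate 2, listed at 0 here, also listed RPL26L1 at 0. The difference from DMSO was -1.85 with all 3 libraries and -0.16 with replicate 3 alone.

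RPL26L1 was lower with A771726 at both times. At 24 h it was at 69.8, 66.9 and 64.5 FPKM in DMSO, 21.8, 45.2 and 37.1 with A771726, and 63.7, 45.6 and 54.5 with nucleotides added. The A771726 libraries overlapped no other group at that time. The difference from DMSO was -0.99 ± 0.22 in log2(FPKM + 1). At 48 h A771726 gave 19.8, 0 and 31.3 FPKM against 51.8 to 62.3 in DMSO, and the difference was -2.70 with all 3 libraries and -0.82 with replicate 3 alone. An antisense RNA gene overlaps RPL26L1, so part of its reads may belong to that gene.

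RPL7L1 had the smallest difference from DMSO at 24 h, and RPL39L one close to it in size. It was at 64.7, 62.4 and 59.7 FPKM in DMSO, 42.9, 51.7 and 49.4 with A771726, and 56.8, 46.6 and 52.7 with nucleotides added. The A771726 libraries were all below those of DMSO, with a difference of -0.37 ± 0.10 in log2(FPKM + 1), and overlapped the nucleotide-supplemented group. The sign of that difference depended on scaling, since it was 0.12 when each library was scaled to the same FPKM sum. At 48 h replicate 2 of A771726 listed 2804 FPKM, while replicates 1 and 3 were at 43.3 and 39.1 FPKM, both below DMSO at 44.7 to 57.1. The difference from DMSO was 1.73 with all 3 libraries and -0.36 with replicate 3 alone.

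Counted over the members, 3 of 5 (RPL22L1, RPL26L1 and RPL7L1) passed limma's threshold of an adjusted p under 0.05 in A771726 against DMSO at 24 h, all lower, where 17.8% of 12042 genes tested passed in either direction and 7.79% were lower. The libraries of the same 3 members lay below all DMSO libraries, as did those of 15.3% of all genes. For A771726 with nucleotides against A771726 at 24 h, RPL22L1 passed as higher (4.3% of all genes) and RPS27L as lower (9.03%), beside 13.3% of all genes either way. In that comparison RPL22L1 and RPL26L1 did not overlap and were higher (8.16% of all genes), and RPS27L and RPL39L did not overlap and were lower (15%). At 48 h only RPS27L passed, higher in A771726 against DMSO (0.83% of all genes, 32.9% either way) and lower in A771726 with nucleotides against A771726 (0.756%, 32.6% either way). RPS27L also did not overlap between those groups (3.76% and 4.5% of all genes), and neither did RPL39L and RPL26L1, which were lower in A771726 (43%) and higher with nucleotides added (46.1%). For RPL39L the gap to DMSO was narrow, with replicate 3 of A771726 at 11.0362 FPKM and the lowest DMSO library at 11.0437. With replicate 3 as the only A771726 library at 48 h, the differences from DMSO were -0.89 for RPL22L1 and -0.82 for RPL26L1. The median over all genes was then -0.24. For A771726 with nucleotides against A771726 these values were 0.99 and 0.92, with a median over all genes of 0.23. Scaling changed the members that passed at 24 h against DMSO: under TPM scaling RPL22L1 and RPL26L1 passed as lower and RPS27L (1.43) and RPL39L (0.87) as higher, and under quantile normalization RPL22L1 and RPL26L1 passed as lower and RPS27L (1.33) as higher. Of all 12042 genes, 5126 passed as higher and 211 as lower under TPM scaling, where the median over all genes was 0.46. Under quantile normalization 860 passed as higher and 957 as lower. The members were picked with these contrasts known and nothing is read from the counts. All 5 members passed the filter of a mean of at least 1 FPKM, their means over 24 libraries being far above it. RPL7L1 did not pass at 24 h without DMSO replicate 1 (-0.34) or 2 (-0.37) or A771726 replicate 1 (-0.29) or 3 (-0.39), and RPS27L and RPL39L passed without A771726 replicate 1. In the supplemented comparison RPS27L did not pass without A771726 replicate 2 (-0.86) or 3 (-1.11) or without any of the 3 supplemented libraries (-1.33 to -1.17), and at 48 h not without DMSO replicate 1 (1.90) or 3 (1.79).

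The parents moved differently from several of their paralogs. Between A771726 and DMSO at 24 h, 3 of the 5 parents fell, with limma adjusted p over all genes. RPL7 fell (-0.90 ± 0.19, adjusted p = 0.0102), as did RPL22 (-0.66 ± 0.16, adjusted p = 0.0192) and RPS27 (-1.10 ± 0.33, adjusted p = 0.0453), in log2(FPKM + 1). RPS27 did not pass with the replicate number as a block (adjusted p = 0.0519), and none of the 3 passed under TPM or quantile scaling. RPL39 had a difference of -0.76 ± 0.27 (adjusted p = 0.0802) and RPL26 one of -0.67 ± 0.32 (adjusted p = 0.181). With each library left out in turn the adjusted p ranged from 0.0057 to 0.074 for RPL22, from 0.0148 to 0.134 for RPS27 and from 0.0025 to 0.0433 for RPL7. No parent passed in A771726 with nucleotides against A771726 at 24 h, with differences from 0.28 to 0.75.

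Dividing each paralog by its parent in the same library removes any factor common to the library. RPL22L1 stood at 32.6%, 37.4% and 36.6% of RPL22 in DMSO at 24 h. With A771726 it stood at 9.84%, 13.2% and 12.5%, and with nucleotides added at 31.4%, 32.8% and 32.9%. The libraries of A771726 alone were far from both other groups and close to each other. The difference from DMSO in the log2 ratio was -1.51 ± 0.13. At 48 h the ratio was 34.5% to 37.0% in DMSO and 20.3%, 149.98% and 24.4% with A771726, a log2 difference of 0.26 ± 0.90 with all 3 libraries and of -0.52 with replicate 3 alone.

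For RPS27L the ratio moved the other way, and replicate 1 no longer stood out. RPS27L was at 3.62%, 4.40% and 3.55% of RPS27 in DMSO at 24 h and at 15.4%, 17.1% and 14.9% with A771726. Nucleotides with A771726 gave 3.92%, 4.75% and 3.38%. The log2 ratio was 2.03 ± 0.11 above DMSO, which is 4.09-fold. That change holds both the fall of RPS27 (-1.10) and the difference of RPS27L itself (0.93) in log2(FPKM + 1). At 48 h it was 2.88% to 3.499% in DMSO and 24.1%, 117% and 18.4% with A771726. That log2 difference was 3.53 ± 0.84 with all 3 libraries and 2.51 with replicate 3 alone.

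RPL39L also stood higher against its parent at 24 h, with RPL39 itself at -0.76 in log2(FPKM + 1). It was at 0.740%, 0.608% and 0.675% of RPL39 in DMSO and at 1.70%, 1.34% and 1.49% with A771726, a log2 difference of 1.14 ± 0.14. The A771726 libraries did not overlap those of DMSO or of A771726 with nucleotides (0.671%, 0.711% and 0.634%). At 48 h A771726 gave 0.407%, 0% and 0.722% against 0.592% to 0.678% in DMSO. That log2 difference was -0.99 ± 0.91 with all 3 libraries and 0.19 with replicate 3 alone. All 3 libraries were below the 1.34% to 1.70% of A771726 at 24 h. Replicate 3 lay within the range of nucleotides alone at 48 h (0.612% to 0.847%). RPL7L1 went from 3.71% to 4.23% of RPL7 in DMSO to 4.59% to 7.07% with A771726 at 24 h, and RPL26L1 from 3.40% to 3.55% of RPL26 to 2.45% to 3.38%. At 48 h RPL7L1 was at 4.01%, 302% and 4.90% of RPL7 with A771726 against 3.48% to 3.66% in DMSO, and RPL26L1 at 1.76%, 0% and 1.94% of RPL26 against 3.09% to 3.25%. With replicate 3 alone these log2 differences were 0.46 and -0.70. All these ratios use values that chose the members and have no test.

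**Figure D3:**
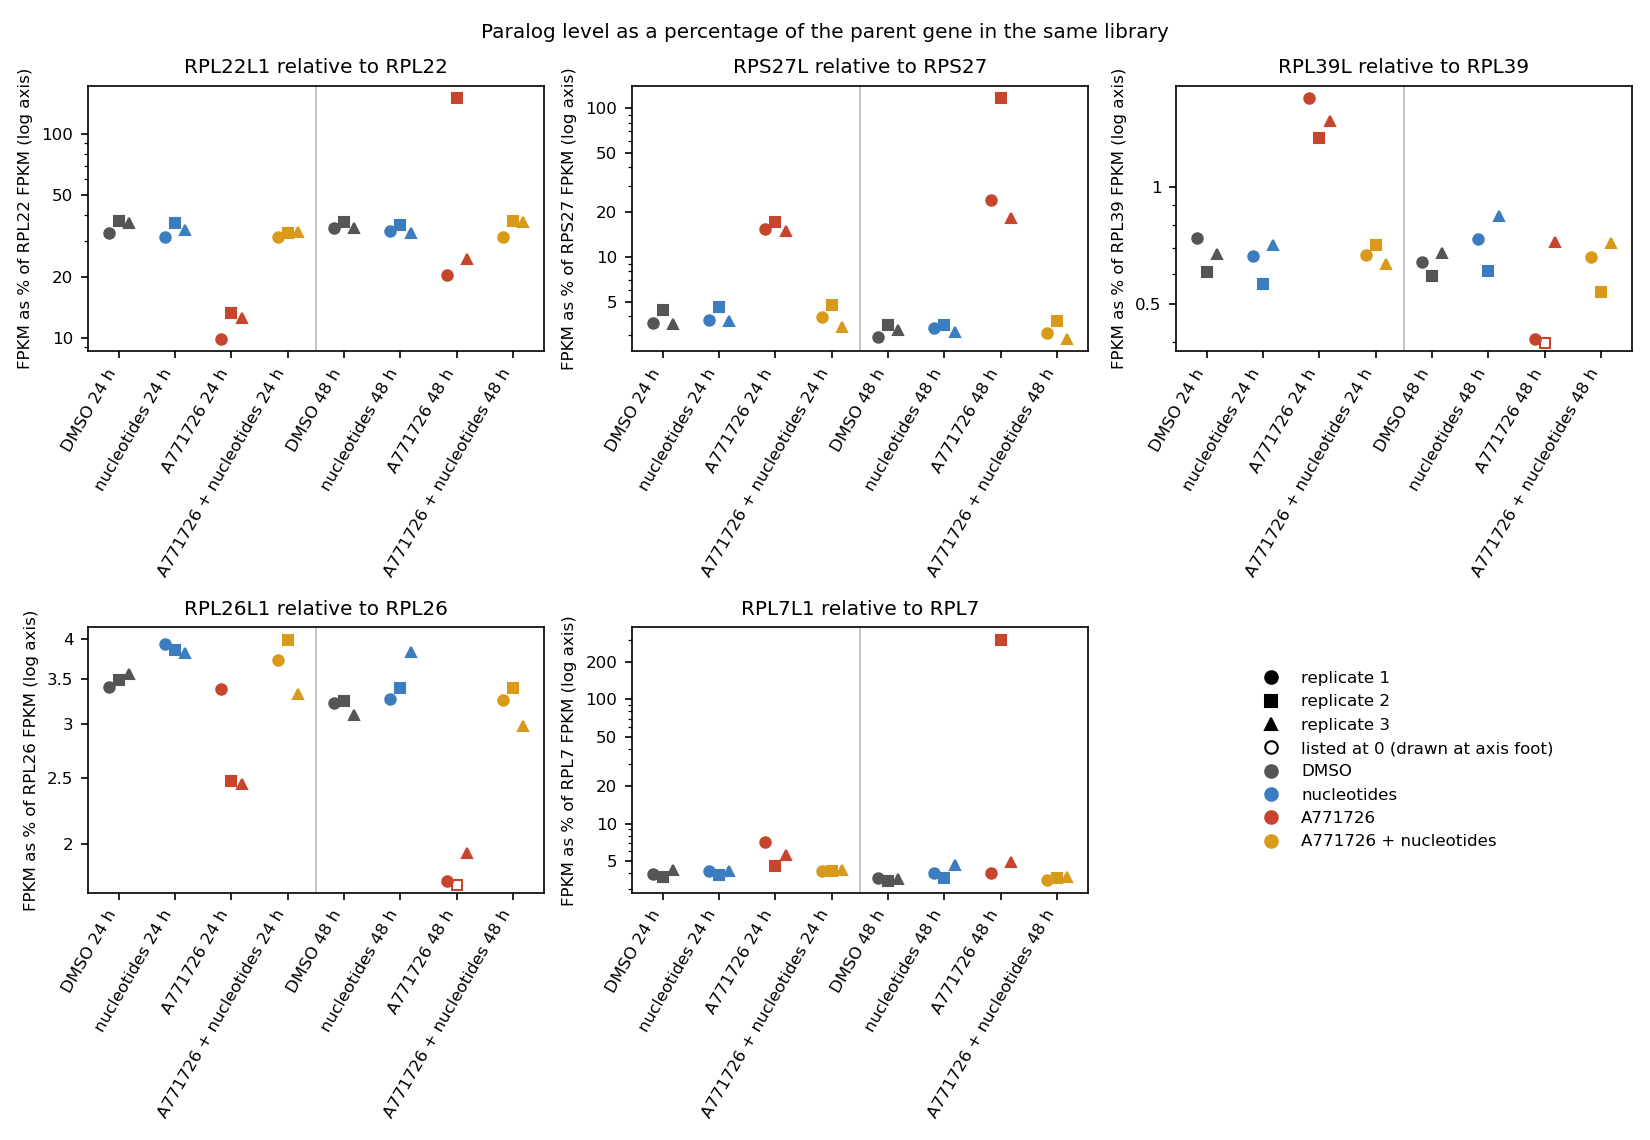
FPKM of each paralog as a percentage of its parent's FPKM in the same library (log axis), by group, with colour for treatment and symbol for replicate. At 24 h the 3 A771726 libraries lie apart from DMSO for RPL22L1 (9.84% to 13.2% against 32.6% to 37.4%), RPS27L (14.9% to 17.1% against 3.55% to 4.40%) and RPL39L (1.34% to 1.70% against 0.608% to 0.740%).

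The 79 cytosolic ribosomal protein genes give the wider frame, and 78 of them passed the filter on low values and were tested. In A771726 against DMSO at 24 h, 43 fell and 0 rose, with a median difference of -0.76 against 0.03 over all genes. Among those that fell were RPL41 (-1.59), RPL23 (-1.59), RPS12 (-1.28) and RPL21 (-1.20), in log2(FPKM + 1), and RPS21 (-0.80) and RPL37A (-0.74) did not pass. RPL22L1 was below all 78, and RPS27L and RPL39L were above all 78, the highest of which was RPS16 at 0.16. RPL26L1 was above 9 and RPL7L1 above 72 of them. The count of 43 was 11, 17 and 20 without DMSO replicate 1, 2 or 3 and 27 without A771726 replicate 3. It was 11 under TPM scaling, and under quantile normalization the median was 0.00 with 2 lower and 3 higher. RPL22L1 (-2.17) and RPS27L (0.93) kept their signs under each scaling tried.

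In A771726 with nucleotides against A771726 at 24 h, 8 of the 78 rose and 0 fell, with a median of 0.46. RPL23 rose by 1.24, RPS12 by 0.94, RPLP0 by 0.79 and RPL10 by 0.68 in log2(FPKM + 1), while RPL41 (1.28) and RPS21 (0.49) did not pass. RPL22L1 was again outside their range, at 1.79 against a highest value of 1.28, and RPS27L (-1.23) and RPL39L (-0.67) were below the lowest, RPL28 at 0.04. The count of 8 was 0 without replicate 1, 15 without replicate 2 and 1 without replicate 3 of the supplemented group, and 19 and 5 without A771726 replicates 2 and 3. It was 13 under median-of-ratios scaling and 5 under TPM scaling, and under quantile normalization 2 were higher and 2 lower. At 48 h, 60 of 78 fell against DMSO with a median of -1.68, where the median of all genes was -0.87. They included RPS16 (-3.26), RPL8 (-3.20), RPS2 (-2.89) and RPL36 (-2.86). That count was 0 without DMSO replicate 1 or 3 and 35 without replicate 2. It was 9 under median-of-ratios scaling, 0 under TPM scaling and 3 under quantile normalization. With replicate 3 as the only A771726 library the median of the 78 was -0.76, where that of all genes was -0.24.

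RPS27L is usually counted among p53 targets, and 27 other genes of that kind were followed, 26 of which passed the filter on low values. The list was written with earlier results of these data known. With A771726 for 24 h, 24 of 26 rose against DMSO and 0 fell, with a median of 1.32, and RPS27L at 0.93 lay under that median. Of all 12042 genes tested 1210 rose, and their median was 0.03 over the whole table. GDF15, a secreted stress cytokine, rose by 3.65, TP53I3, an oxidoreductase, by 2.70, BTG2, an antiproliferative factor, by 2.69, and BBC3, which encodes the death activator PUMA, by 2.34. CCNG1 (0.55) and PLK2 (0.30) did not pass. With nucleotides added all 26 tested fell against A771726 alone, with a median of -1.39, beside -1.23 for RPS27L. In that comparison 9.03% of all genes were lower, and the median over all genes was -0.03. At 48 h 3 of 26 rose against DMSO (MDM2, CDKN1A and BTG2), as did 0.83% of all genes. The median was 0.51, against -0.87 over all genes. With replicate 3 as the only A771726 library it was 1.26, against -0.24 over all genes. The count of 3 was 5 under median-of-ratios scaling, 2 under TPM scaling and 9 under quantile normalization. It was 0 without any single DMSO library and 7, 14 and 13 (6 of them higher) without A771726 replicate 1, 2 or 3.

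**Figure D4:**
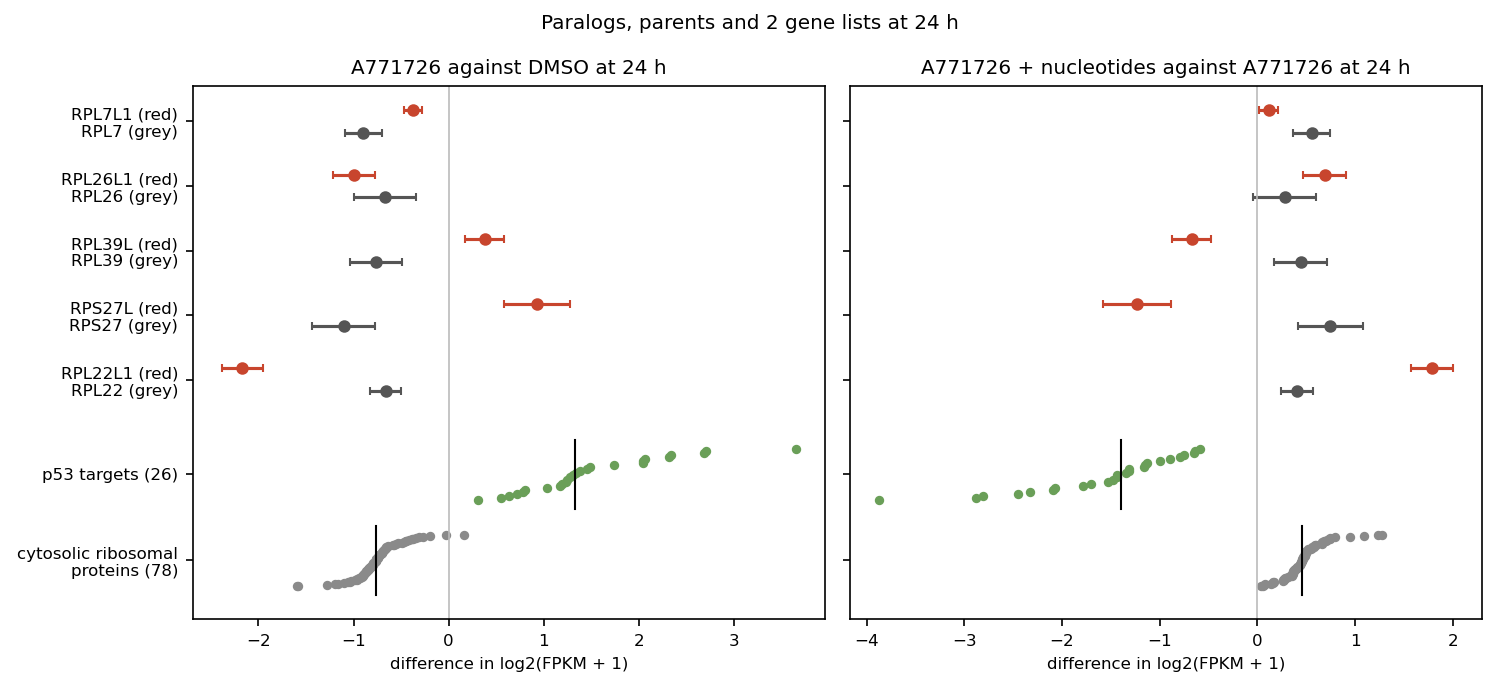
Differences in log2(FPKM + 1) at 24 h (horizontal axis) for paralogs (red) and parents (grey) with standard errors, and for each tested gene of 2 lists with the list's median as a black line. In A771726 against DMSO (left) RPL22L1 at -2.17 is left of all 78 ribosomal protein genes and RPS27L at 0.93 is on the side of the p53 targets, and both are on the opposite side when nucleotides are added (right).

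Some markers of other cells moved with A771726 too. The summed level of 9 leukocyte markers was 7.54 to 8.64 FPKM in DMSO and 24.1 to 37.2 FPKM with A771726 at 24 h, and 41.9 to 986.4 with A771726 at 48 h. It came from LYZ, at 14.8 to 28.1 FPKM with A771726 at 24 h, and CD68, at 9.06 to 9.86, and only these 2 of the 9 reached a mean of 1 FPKM. With A771726 at 48 h LYZ was at 36.3, 955.9 and 39.9 FPKM in replicates 1 to 3, of which 1 and 2 stood apart. The 9 fibroblast and endothelium markers summed to 1.97 to 2.202 FPKM in DMSO and 4.71 to 5.36 with A771726 at 24 h. Their part in the results was not tested.

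Nucleotides alone left the members near their DMSO levels, a comparison not treated here as one of the values used to choose them. At 24 h the differences ran from -0.15 (RPL22L1) to 0.06 (RPL26L1), and none of the 5 passed, with limma adjusted p = 1 for each, where 0.0083% of all genes passed. The 95% intervals were -0.63 to 0.34 for RPL22L1 and -0.84 to 0.71 for RPS27L, so changes of that size were not detectable. At 48 h they ran from -0.14 (RPS27L) to 0.10 (RPL7L1), again with adjusted p = 1 for each and 0.0083% of all genes passing. The fit at 48 h included the A771726 libraries that stood apart. Its standard errors were 0.69 for RPL39L, 1.02 for RPL26L1 and 1.28 for RPL7L1, against 0.20, 0.22 and 0.096 at 24 h. With errors of that size the lack of calls in that fit cannot decide whether these members changed. With replicates 1 and 2 of A771726 left out, their differences stayed at -0.01 (RPL39L), -0.08 (RPL26L1) and 0.10 (RPL7L1). The standard errors were then 0.14, 0.17 and 0.12. With an unadjusted limma p under 0.05 the count was 0 at both times. A771726 with nucleotides against DMSO gave differences from -0.38 (RPL22L1) to -0.26 (RPL7L1) at 24 h and from 0.06 to 0.10 at 48 h, and no member was called, where 0.0249% of all genes were called at each time. At 24 h all members but RPS27L nonetheless lay below every DMSO library, as did 7.7% of all genes. For A771726 with nucleotides against DMSO at 48 h, both fits had the standard errors given above for nucleotides alone. The limit of the main fit was the same.

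Time in culture was compared within each of the other treatments. In DMSO all 5 members were lower at 48 than at 24 h, by 0.08 (RPL22L1) to 0.35 (RPS27L) in log2(FPKM + 1), and none passed, with limma adjusted p from 0.156 to 0.881, where 3.02% of all genes passed. RPS27L, RPL26L1 and RPL7L1 did not overlap between the times, and were lower at 48 h, as were 11.2% of all genes. Same-numbered DMSO libraries deviated together, and with the replicate number as a block RPL7L1 passed (-0.30, adjusted p = 0.0413), as did 1425 of the 12042 genes. With the block and the 6 DMSO libraries alone, RPS27L (-0.35, adjusted p = 0.0374), RPL26L1 (-0.26, adjusted p = 0.0416) and RPL7L1 (adjusted p = 0.0445) passed, as did 2560 of the 12042 genes. That last fit was chosen after seeing that this was the 1 of 28 pairs of groups to deviate together, so its p-values are a description. The labels do not say that equal replicate numbers mark a shared culture. No member passed between 48 and 24 h in nucleotides (2.51% of all genes passed) or in A771726 with nucleotides (3.2%), and 1 member had an unadjusted limma p under 0.05 in DMSO and 1 in nucleotides. RPL26L1 and RPL7L1 were lower without overlap in nucleotides (10.6% of all genes), and RPL22L1 and RPL39L higher without overlap in A771726 with nucleotides (14.7%). The nearest in nucleotides was RPL26L1 at -0.39 (adjusted p = 0.206), and in A771726 with nucleotides, given as a description, the differences ran from 0.01 (RPS27L) to 0.40 (RPL22L1).

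The other genes most like each member were ranked by Pearson correlation of log2(FPKM + 1) over 22 libraries, among 7138 genes and without replicates 1 and 2 of A771726 at 48 h. These libraries share scaling and treatment groups, and the coefficients are descriptions. RPL22L1 was most like MYL12A (0.979), GAS5 (0.974) and HSPA8 (0.968), with its parent RPL22 at 0.898. RPS27L was most like BLOC1S2 (0.960), TTC17 (0.951) and TRIAP1 (0.950), the last of which is on the p53 list, and its parent RPS27 was at -0.135. RPL39L was most like TMEM106C (0.922), MDP1 (0.896) and ISCU (0.892), with RPL39 at 0.176. RPL26L1 was most like EEF1B2 (0.977), RPS26 (0.976) and HNRNPF (0.975), with RPL26 at 0.818, and RPL7L1 was most like EIF2B1 (0.952), CLNS1A (0.951) and CCT2 (0.941), with RPL7 at 0.832. Among the members themselves RPL26L1 went with RPL7L1 (0.865) and RPL22L1 (0.861), and RPS27L with RPL39L (0.578), while RPL22L1 and RPS27L ran against each other (-0.499). With all 24 libraries, ISCU was the only one of these 15 genes that stayed among the 3 most like its member.

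Of 3 further paralogs, RPL36AL, which differs from its parent in few residues, was at 160.7 ± 12.1 FPKM in DMSO and 97.8 ± 30.9 with A771726 at 24 h (SD, n = 3) and fell (-0.76 in log2(FPKM + 1), limma adjusted p = 0.0365). RPL10L, a testis-enriched copy that replaces RPL10 in mouse male germ cells, stayed between 0 and 0.511 FPKM. RPL3L, which belongs to heart and skeletal muscle, stayed between 0 and 0.0408 FPKM. The last 2 were under the filter on low values and were not tested.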

How the data were processed

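RNA was measured in A375 cells in 24 libraries (8 groups of 3). The authors deposited FPKM values per gene with no counts, so depth is unknown and its precision cannot be given. Per the submitters' processing notes, the tools were cutadapt, TopHat2 2.0.11 and Cufflinks 2.2.1, with build hg19. The cutadapt version, annotation and strand setting: not given in the sources used here. No coordinates were taken from hg19; sequences are from RefSeq (GRCh38.p14) and GENCODE 29 and carry GRCh38 positions, and 4 of 5 members had a promoter there.

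A log2 value was computed from the deposited FPKM after adding 1, which understates changes of low genes, and the filter on low values (mean FPKM of 1 or more over all libraries) kept 12042 of 25268 genes. Groups were compared with limma 3.58.1 in R 4.3.3, without trend, robust estimation or block, with Benjamini-Hochberg adjustment over all genes within a comparison and calls at an adjusted p under 0.05. Fits held the 12 libraries of 1 time, or the 18 of the 6 groups without A771726 alone for time. The script was tested on simulated data. Sequences and levels were handled with Python 3.11.15, with Biopython 1.88 for alignments. Over 276 pairs of libraries at most 0.0117% of genes had identical values, so none was treated as a repeat.

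Members and lists were chosen with earlier results of these data known. Named genes are the members, parents and 3 further paralogs, up to 4 called (by size) and 2 uncalled (by mean level) genes per list, and the 3 genes most like each member, with a mean of at least 5 FPKM and no 0 over the 22 libraries used. Replicate numbers come from the sample titles. Same-numbered libraries deviated together (every correlation over 0.1) in 1 of 28 pairs of groups, DMSO at 24 and 48 h (0.125 to 0.300). The settings varied were scaling (median-of-ratios, TPM, quantile), the pseudocount (0.1), the filter (none, or 5 FPKM), trend with robust estimation, all 24 libraries in 1 fit, the replicate number as a block, and the omission of single libraries. P-values measure only the spread between libraries.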

Additional observations from a re-analysis of the deposited data

Results flagged for a closer look

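For RPL39L, the effect of adding nucleotides to A771726 ran in opposite directions at the 2 times. All 3 supplemented libraries were below A771726 alone at 24 h, by -0.67 in log2(FPKM + 1), and all 3 were above it at 48 h, by 1.95. The difference between the times was not tested. The A771726 libraries at 48 h were at 3.31, 0 and 11.0 FPKM and include the 2 libraries that stood apart, and without replicate 2 of that group the value at 48 h was 1.00. With replicate 3 as the only A771726 library it was 0.26.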

How the results depend on the processing

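Of 850 values for single members under alternatives, 790 kept their side of the threshold, 35 gained a call, 24 lost one and 1 reversed. The reversed value was RPL7L1 in A771726 against DMSO at 24 h, at 0.12 under TPM scaling (main -0.37). Values called in neither setting were counted as kept even where their sign changed. For example, RPL7L1 in A771726 against DMSO at 48 h went from 1.73 to -0.36 with replicate 3 as the only A771726 library. In A771726 against DMSO at 24 h, 3 members were called and 1 with all 24 libraries in 1 fit, with 2 to 4 when each library was left out. Under TPM scaling 4 were called, 2 of them higher, and under quantile normalization 3, 1 of them higher. In A771726 with nucleotides against A771726 at 24 h, 2 were called and 1 with no filter, with a minimum mean of 5 FPKM and with all 24 libraries, with 1 to 3 when each library was left out. In A771726 against DMSO at 48 h, 1 was called, 0 under TPM scaling, and 3 with all 24 libraries or without replicates 1 and 2 of A771726 together, which leaves 1 library assumed to vary like the other groups. In the supplemented comparison at 48 h, 1 was called, 0 under TPM scaling, 3 with a minimum mean of 5 FPKM or without both replicates, and 4 with all 24. Leaving out each library gave 0 to 3 and 0 to 4. For 48 against 24 h in DMSO, 0 were called, 1 with the replicate block and 3 with the block and the 6 DMSO libraries alone, an alternative chosen after seeing the data, while the calls over the whole table went from 364 to 1425 and 2560. The block changed the member count in no other comparison. In A771726 against DMSO at 24 h the median over all genes went from 0.03 to 0.46 under TPM scaling and the lower share of calls went from 43.7% (938 of 2148) to 4.0% (211 of 5337). The median of cytosolic ribosomal proteins was then -0.26. Genes called over the whole table numbered 1252 with a minimum mean of 5 FPKM, 3560 with the replicate block and 114 with all 24 libraries. For RPL39L to RPL39 at 48 h, a pseudocount of 0.1 gave -2.15 in place of -0.99 for A771726 against DMSO. The causes were not tested. With 24 libraries the 3 genes most like RPL22L1 ranked 26 or lower. Depth is unknown, 3 libraries a group limit precision, and parents share sequence with pseudogenes.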
